A study of Mus musculus with 4 samples.

Results

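The transcripts described here are those of the E2F transcription factors and of their pocket protein partners in Neuro-2a cells, a line from a mouse neuroblastoma of the albino strain A. Cells at semi-confluence received 30 µM deltamethrin, a pyrethroid insecticide that holds voltage-gated sodium channels open, or the vehicle, 0.1% DMSO, for 24 h. RNA was read on Clariom S Mouse arrays, with 2 arrays of deltamethrin-treated cells and 2 arrays of vehicle-treated cells. Members were all probe sets whose gene symbol in the platform annotation was E2f1 to E2f8, Rb1 or Rbl1, and 11 of 22206 probe sets met this rule. They read 10 genes, with 2 probe sets for E2f3 and 1 for each other gene. All RNA came from 1 cell line and the labels do not name separate cultures, so a p-value here reflects the spread between arrays that may be technical replicates.

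E2F factors bind a short GC-rich site in the promoters of genes for DNA replication and cell cycle entry. The activators E2F1, E2F2 and E2F3 pair with a DP protein and are held in check by the retinoblastoma protein RB until cyclin-dependent kinases phosphorylate it. E2F4 and E2F5 act mostly as repressors with the pocket proteins p107, encoded by Rbl1, and p130, in quiescent and early cycling cells. E2F6 binds no pocket protein and represses as part of a Polycomb complex called PRC1.6. The atypical E2F7 and E2F8 bind DNA without a DP partner or a pocket protein, repress E2F target genes late in the cycle, and are themselves products of E2F target genes. Most members are active in cycling cells, such as neuroblastoma cells in culture.

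Promoters are shown for 5 members because they hold words that E2F factors or the cell cycle repressor complex DREAM are known to bind, both in members with lower estimates and in Rbl1, whose level was near that of vehicle cells. Sequences are RefSeq windows of build GRCm38.p6, from 250 bases before to 50 bases after an annotated start, written 5′ to 3′ along the gene. Windows were matched for 7 of the 10 genes, and none for E2f4, E2f5 and Rb1. Capitals mark exact matches to the E2F words TTTCCCGC, TTTCGCGC, TTTGCCGC and TTTGGCGC, or to TTTGAA, the cell cycle homology region (CHR) word that the DREAM and MuvB complexes bind, each searched on both strands. A match on the opposite strand appears as its reverse complement, and none of the capitalised words overlap each other.
E2f7, chr10:110745189-110745488, plus strand: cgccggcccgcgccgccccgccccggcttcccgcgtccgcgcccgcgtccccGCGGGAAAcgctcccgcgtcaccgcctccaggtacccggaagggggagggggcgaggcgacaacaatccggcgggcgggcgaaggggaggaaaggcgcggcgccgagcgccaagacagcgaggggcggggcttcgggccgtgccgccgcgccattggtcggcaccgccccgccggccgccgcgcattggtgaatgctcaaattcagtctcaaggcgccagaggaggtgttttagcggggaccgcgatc
E2f8, chr7:48881547-48881846, minus strand: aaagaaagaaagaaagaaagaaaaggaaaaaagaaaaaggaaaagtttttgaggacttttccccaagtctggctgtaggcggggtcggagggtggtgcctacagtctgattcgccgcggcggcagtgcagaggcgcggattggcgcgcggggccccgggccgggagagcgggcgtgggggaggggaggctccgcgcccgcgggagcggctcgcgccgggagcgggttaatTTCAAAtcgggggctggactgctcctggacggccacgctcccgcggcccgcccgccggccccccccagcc
E2f2, chr4:136172024-136172323, plus strand: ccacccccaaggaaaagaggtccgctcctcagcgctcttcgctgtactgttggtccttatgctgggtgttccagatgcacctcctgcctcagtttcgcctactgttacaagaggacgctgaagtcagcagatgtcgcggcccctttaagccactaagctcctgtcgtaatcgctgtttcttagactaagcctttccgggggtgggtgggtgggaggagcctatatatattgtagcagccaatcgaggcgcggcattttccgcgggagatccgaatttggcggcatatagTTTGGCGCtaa
E2f3, chr13:29986014-29986313, minus strand: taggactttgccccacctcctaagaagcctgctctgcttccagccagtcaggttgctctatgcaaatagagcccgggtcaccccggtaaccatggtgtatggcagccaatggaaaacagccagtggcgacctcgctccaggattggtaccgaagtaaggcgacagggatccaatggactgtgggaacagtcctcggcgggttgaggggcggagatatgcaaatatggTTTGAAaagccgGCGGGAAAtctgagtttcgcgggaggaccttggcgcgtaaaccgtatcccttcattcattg
Rbl1, chr2:157204485-157204784, minus strand: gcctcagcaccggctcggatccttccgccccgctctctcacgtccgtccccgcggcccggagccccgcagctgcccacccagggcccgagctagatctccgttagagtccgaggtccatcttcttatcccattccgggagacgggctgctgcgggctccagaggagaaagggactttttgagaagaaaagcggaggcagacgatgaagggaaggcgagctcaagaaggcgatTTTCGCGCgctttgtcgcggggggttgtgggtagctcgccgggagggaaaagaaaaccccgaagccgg

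An E2F word began 198 bases upstream of the start in E2f7 and 11 bases upstream in E2f3, in each case on the opposite strand. In Rbl1 it began 18 bases upstream, and in E2f2 it began at base 40 of the transcript, in both genes on the coding strand. The E2f8 window held none of the 4 E2F words but had the CHR word on the opposite strand 20 bases upstream, and the E2f3 window had the CHR word 23 bases upstream. Of the 7 genes with a window, 4 held an E2F word, a share of 57.1% against 2.6% of all 27025 genes in the table. The member windows held 54.7% to 78.7% GC, against a median of 52.7% over all windows, and the shares were not matched for GC. The CHR word lay in windows of 3 of the 7 genes, a share of 42.9% against 20.2% of all genes. The window of Rbl1, whose groups overlapped, holds an E2F word, and the window of E2f8, with the second most negative estimate, holds none. These are matches of letters, and the windows of E2f1 and E2f6 and the inner starts of E2f2 and E2f3 held no E2F word. The windows of E2f1 and E2f8 lay wholly inside their annotated genes, so promoters at the outer starts of those genes were not searched. On the minus strand the windows reach upstream to bases 154569676 and 48881846, and the annotated genes to 154569892 and 48882073.

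In deltamethrin-treated cells the atypical repressor E2f7 was the only member called, with a level 0.313 times that of vehicle-treated cells. In simulated data 11 of 100 probe sets given a 2-fold change were called, so a member that was not called may still differ. The other atypical member, E2f8, and the activators E2f1, E2f2 and E2f3 were lower on both deltamethrin arrays but did not pass the test across all probe sets. Among canonical repressors the estimates lay closer to 0, with E2f6 slightly above it, and the pocket proteins split, with Rb1 lower and Rbl1 level. The test was limma with Benjamini-Hochberg adjustment over all 22206 probe sets, with calls at an adjusted p below 0.05. By this rule 1 of 11 member probe sets fell and 0 rose, against 0.0766% of all probe sets called lower and 0.356% called higher. At an unadjusted p below 0.05, 8 of the 11 were lower and 0 higher, against 6.84% of all probe sets lower and 6.83% higher. In 9 of 11 both deltamethrin arrays lay below both vehicle arrays, which held for 23.5% of all probe sets. In 1 of 11 both lay above, as in 20.3% of all. The estimate was below 0 for 10 of 11, against 53.2% of all. The members' median log2 fold change was -0.63, against -0.02 for all probe sets. Members were chosen with earlier results of these data known, so these counts are descriptions.

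All values below are normalised log2 levels, and each probe set is compared with itself across arrays. Every member probe set lay above the median level of all probe sets, 5.60. Array medians ran from 5.61 to 5.63. Differences between paired values of 2 arrays had an SD of 0.368 within the deltamethrin group and 0.332 within the vehicle group, and of 0.403 to 0.453 across groups. Of 12 neuroblastoma markers 9 were measured, all above the median level, and their mean level was 12.01 on the deltamethrin arrays, against 12.42 on the vehicle arrays. All 9 estimates were below 0, 4 had an unadjusted p below 0.05, and in 6 both deltamethrin arrays lay below both vehicle arrays. These estimates lay on the same side of 0 as those of most members, and their part in the members' values was not tested. Isl1, a sympathetic neuron transcription factor, had the lowest estimate among them (-1.14 ± 0.17, SE, limma adjusted p = 0.0740) and was called with a mean-variance trend. Of 20 measured markers of astrocytes, fibroblasts, macrophages, oligodendrocytes and Schwann cells, 1 lay above the median level, the leukocyte gene Ptprc at 5.73 ± 0.03 with deltamethrin and 6.07 ± 0.10 with vehicle (SD, n = 2 each). None of these 20 was called (limma), and 1 of them, Gjb6, had an unadjusted p below 0.05.

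**Figure D1:**
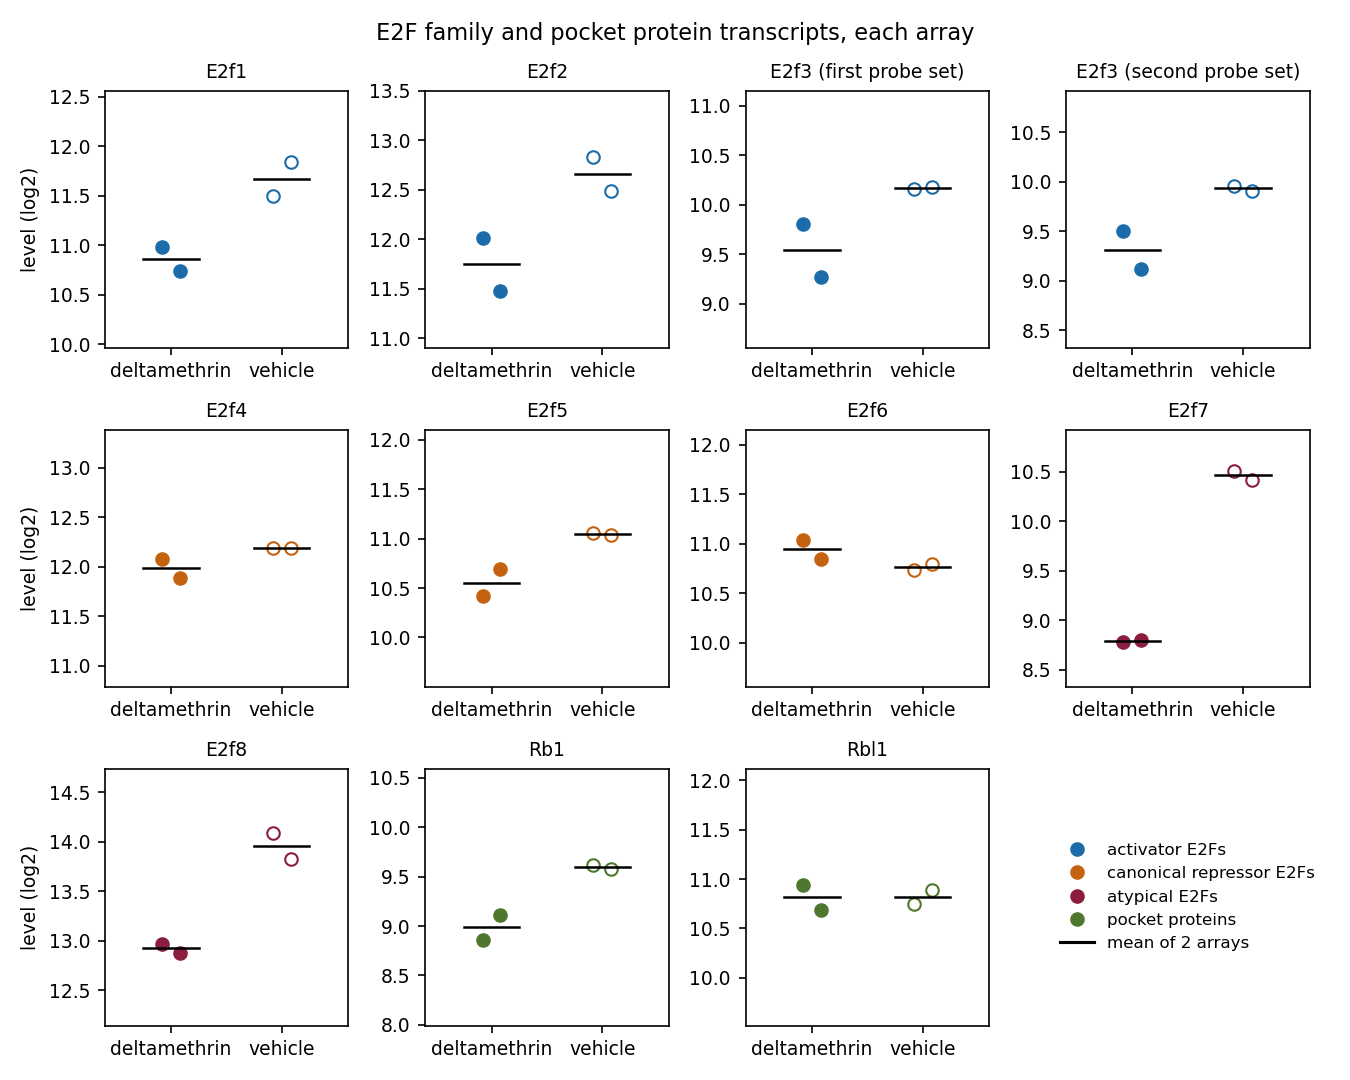
Normalised log2 level of each member probe set on each array, deltamethrin (filled) left of vehicle (open), with the mean of 2 arrays as a line. Every panel spans the same log2 range. The groups are farthest apart for E2f7, at 8.78 and 8.80 against 10.51 and 10.42, and they overlap for Rbl1.

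E2f7 encodes an atypical E2F that represses replication genes after S phase has begun. Its level was 8.78 and 8.80 on the deltamethrin arrays, against 10.51 and 10.42 on the vehicle arrays. The replicates of each group lay within 0.09 of each other, while the gap between the groups was 1.62. The log2 fold change was -1.68 ± 0.16 (SE, limma adjusted p = 0.0245), with a 95% interval of -2.07 to -1.28. Only 3 of all 22206 probe sets had a lower estimate. The call was lost when any 1 array was left out, although the estimate hardly moved. The adjusted p was 0.431 without deltamethrin replicate 1, 0.364 without deltamethrin replicate 2, 0.678 without vehicle replicate 1 and 0.546 without vehicle replicate 2, with estimates of -1.72 to -1.63. It was also lost in statistics without moderation of the variance (adjusted p = 0.362). No probe set of the table was called in any of the limma fits with an array left out, with 1631 to 2779 at an unadjusted p below 0.05.

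E2f8, the other atypical repressor, acts redundantly with E2F7 in mouse development. It was at 12.97 and 12.88 on the deltamethrin arrays, against 14.09 and 13.83 on the vehicle arrays, and the groups were 0.86 apart. Its log2 fold change of -1.04 ± 0.18 did not pass (SE, limma adjusted p = 0.0953), and the interval ran from -1.46 to -0.61. With a mean-variance trend in limma, which lets the expected variance differ with level, E2f8 was called (adjusted p = 0.00239), as it was when dim probe sets were left out (adjusted p = 0.0351). Both atypical genes thus had values that barely differed between the deltamethrin arrays, by 0.02 for E2f7 and -0.09 for E2f8 when the second array is set against the first.

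Among activators, E2f2 had the most negative estimate. E2f2 was at 12.01 and 11.48 on the deltamethrin arrays, against 12.83 and 12.49 on the vehicle arrays, a log2 fold change of -0.92 ± 0.24 (SE, limma adjusted p = 0.193). E2f1, the activator that can also promote apoptosis, was at 10.98 and 10.74 with deltamethrin, against 11.50 and 11.84 with vehicle. Its log2 fold change was -0.81 ± 0.20 (SE, limma adjusted p = 0.181). In neither gene did the groups overlap, and the gap between them was 0.48 for E2f2 and 0.52 for E2f1. A mean-variance trend brought both past the threshold, with adjusted p = 0.0294 for E2f2 and 0.0289 for E2f1.

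E2f3 is transcribed from alternative starts into activator and repressor forms, and its 2 probe sets are annotated to different RefSeq transcripts. The first probe set read 9.81 and 9.27 on the deltamethrin arrays, against 10.16 and 10.18 on the vehicle arrays. The second read 9.50 and 9.12 with deltamethrin, against 9.96 and 9.91 with vehicle. The probe sets gave nearly the same difference, -0.63 ± 0.22 and -0.63 ± 0.19 (SE), and neither passed (limma adjusted p = 0.300 and 0.252) in this fit or with a mean-variance trend. Without deltamethrin replicate 2 the first was at -0.36, and without deltamethrin replicate 1 at -0.90. Which form each probe set reads was not settled from the annotation used here.

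The canonical repressors were closer to vehicle levels. E2f5, a partner of p130 and p107, was at 10.42 and 10.69 with deltamethrin, against 11.06 and 11.04 with vehicle, a log2 fold change of -0.50 ± 0.18 (SE, limma adjusted p = 0.308). E2f4, the most widely expressed repressor E2F, was at 12.08 and 11.89 with deltamethrin, against 12.19 on both vehicle arrays. Its log2 fold change was -0.21 ± 0.17 (SE, limma adjusted p = 0.656), and the interval of -0.61 to 0.20 spans 0. It was -0.30 without deltamethrin replicate 1 and -0.11 without deltamethrin replicate 2. E2f6 was the member with a higher estimate, at 11.04 and 10.85 with deltamethrin against 10.73 and 10.80 with vehicle. Its log2 fold change of 0.18 ± 0.17 was small (SE, limma adjusted p = 0.705), with an interval of -0.23 to 0.59, and the gap between the groups was 0.05. It was 0.085 without deltamethrin replicate 1 and 0.275 without deltamethrin replicate 2.

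The pocket proteins among the members, Rb1 and Rbl1, differed from each other in their estimates, and the gene for p130 was not a member. Rb1, which encodes RB, was at 8.86 and 9.11 on the deltamethrin arrays, against 9.62 and 9.58 on the vehicle arrays. The groups were 0.47 apart and the log2 fold change was -0.62 ± 0.18 (SE, limma adjusted p = 0.223). Rbl1, which encodes p107 and is known as an E2F target itself, was at 10.94 and 10.69 with deltamethrin, against 10.75 and 10.89 with vehicle. Its groups overlapped, and the estimate was -0.01 ± 0.18 (SE, limma adjusted p = 0.992) with an interval of -0.44 to 0.43.

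**Figure D2:**
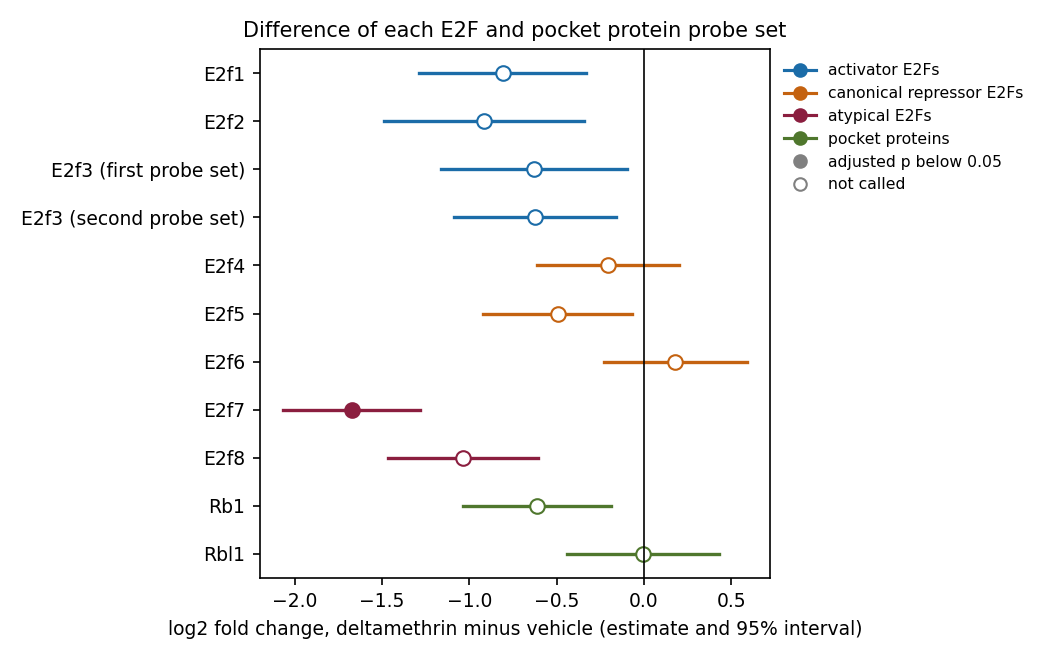
Log2 fold change (deltamethrin minus vehicle) of each member probe set with its 95% interval from limma, coloured by class. The filled point, E2f7, was called at an adjusted p below 0.05. The intervals of E2f4, E2f6 and Rbl1 span 0.

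Grouped by class, the order of the mean log2 fold changes ran from the 2 atypical genes (-1.36) through the 3 activators (-0.79) and the 2 pocket proteins (-0.31) to the 3 canonical repressors (-0.17), with the brighter probe set standing for E2f3. The classes were also read array by array, with each probe set set against its own vehicle mean. The atypical genes were shifted by -1.34 and -1.37 on the deltamethrin arrays, against 0.09 and -0.09 on the vehicle arrays. The activators were shifted by -0.57 and -1.003 on the deltamethrin arrays. On the vehicle arrays E2f1 lay at -0.17 and 0.17 and E2f2 at 0.17 and -0.17, deviations that cancel in a class mean. For the canonical repressors the shifts were -0.16 and -0.19 with deltamethrin, against -0.01 and 0.01 with vehicle.

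All 4 probe sets of E2f1, E2f2 and E2f3 were lower on the second deltamethrin array than on the first, by 0.24 to 0.54. So were Rbl1, E2f4 and E2f6, with second minus first at -0.25, -0.19 and -0.19, while E2f5 and Rb1 were higher on the second, by 0.27 and 0.25. On the first deltamethrin array E2f5 and E2f1 lay at similar distances from their vehicle means, -0.63 and -0.69, and on the second they stood apart, at -0.36 and -0.93. The activator mean lay below the canonical repressor mean on both deltamethrin arrays, and E2f7 was farthest below its vehicle mean on both. The classes hold 2 or 3 genes each, and the differences between them were not tested.

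**Figure D3:**
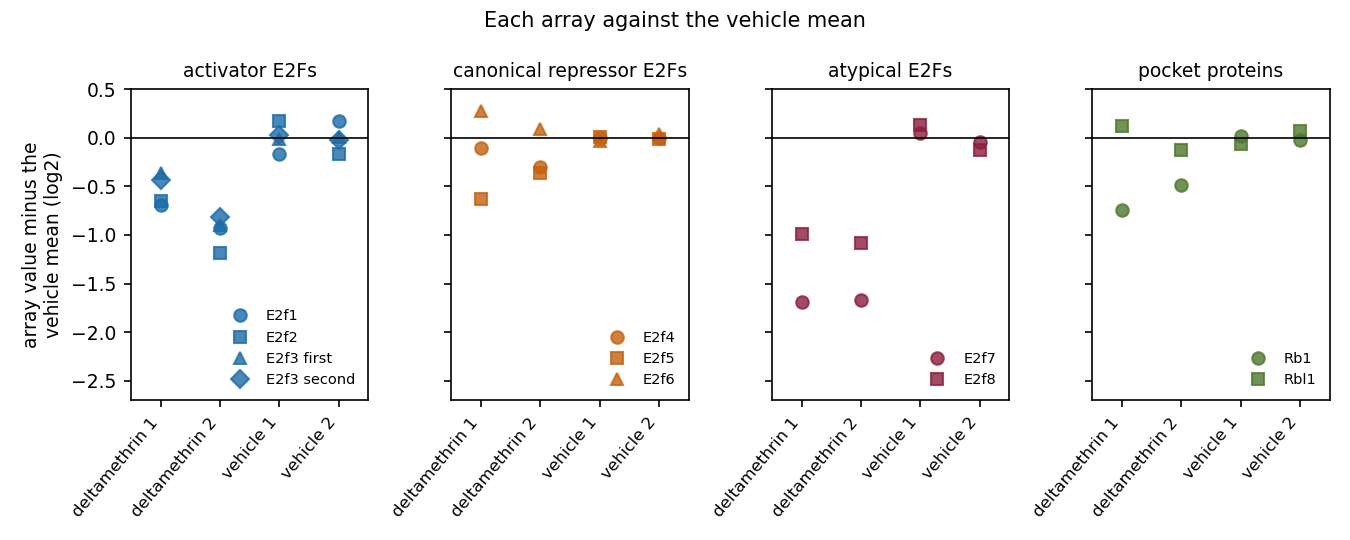
Each array's log2 value minus the mean of the vehicle arrays, by class, deltamethrin arrays left of vehicle arrays, with 1 marker shape per probe set. E2f7 and E2f8 sit at similar depths on both deltamethrin arrays, while the activators, E2f4, E2f6 and Rbl1 are lower on the second.

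Other parts of the pathway were read from lists chosen with earlier results of these data known, and a gene with several probe sets was read by the brightest. The DP proteins, which most E2Fs need to bind DNA, had estimates near those of the canonical repressors. Tfdp1 was at 15.59 and 15.48 with deltamethrin, against 15.78 and 15.81 with vehicle, and Tfdp2 at 10.31 and 10.36, against 10.58 and 10.72. Their log2 fold changes were -0.26 ± 0.16 and -0.32 ± 0.17 (SE), and 0 of 2 passed in limma or had an unadjusted p below 0.05.

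B-MYB and the MuvB core switch DREAM from repression to activation late in the cycle. Of 6 measured genes 0 rose and 0 fell in limma, 1 had an unadjusted p below 0.05, and there was a median log2 fold change of -0.22. Mybl2, the gene for B-MYB and a classical E2F target, was at 11.16 and 10.98 with deltamethrin, against 12.04 and 12.12 with vehicle. Its estimate of -1.01 ± 0.17 (SE, limma adjusted p = 0.0905) was close to that of E2f8, whereas the MuvB subunits Lin9 and Lin37 were at -0.34 ± 0.20 and -0.27 ± 0.22. In this list both deltamethrin arrays lay below both vehicle arrays for Mybl2, Lin9 and Lin54, 3 of 6 genes against 23.5% of all probe sets, and the groups of the other 3 overlapped.

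G1 cyclins and their kinases phosphorylate RB, and CDK inhibitors block them. Of 7 measured cyclin and kinase genes 0 rose and 0 fell in limma, 2 had an unadjusted p below 0.05, and the median was -0.33. The lowest estimates of the list were those of the cyclin E genes Ccne1 (-0.77 ± 0.17) and Ccne2 (-0.59 ± 0.25) and their kinase Cdk2 (-0.58 ± 0.19), with adjusted p of 0.160, 0.370 and 0.269 in limma. The RB kinase Cdk4 was at 0.02 ± 0.16. Of 7 CDK inhibitor genes 0 rose and 0 fell in limma, 0 had an unadjusted p below 0.05, and the median was 0.04. Cdkn1a, the gene for p21, was at 13.93 and 13.72 with deltamethrin, against 13.65 and 13.52 with vehicle, a log2 fold change of 0.24 ± 0.18 (SE, limma adjusted p = 0.608). Cdkn2c and Cdkn2d, which encode INK4 inhibitors of CDK4 and CDK6, were at -0.34 ± 0.28 and -0.31 ± 0.17.

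The E2F target genes of G1/S had estimates on the same side as the activators and the atypical genes. Of 29 measured target genes 1 fell, 0 rose and 28 did not pass, against 0.0766% of all probe sets called lower. All 29 estimates were below 0, against 53.2% of all probe sets, and their median was -0.65, against -0.02. Both deltamethrin arrays lay below both vehicle arrays in 27 of them, against 23.5% of all probe sets. The gene that fell was Rrm2, the small subunit of ribonucleotide reductase, at 13.10 and 12.99 with deltamethrin, against 14.37 and 14.29 with vehicle (-1.29 ± 0.17, SE, limma adjusted p = 0.0464). Cdc6, which loads the replicative helicase, had a larger but more variable difference of -1.60 ± 0.26. It was at 9.77 and 9.02 with deltamethrin, against 10.96 and 11.03 with vehicle, and was lower on the second deltamethrin array. The phosphatase gene Cdc25a was at 9.74 and 9.44 with deltamethrin, against 10.72 and 10.70 with vehicle (-1.12 ± 0.18, SE). Neither Cdc6 nor Cdc25a passed (limma adjusted p = 0.0864 for each).

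The genes of G2/M known to be controlled through CHR elements had a similar median. Of 21 measured genes 0 rose and 0 fell in limma, with 13 lower at an unadjusted p below 0.05, against 6.84% of all probe sets. All 21 estimates were below 0, against 53.2% of all, with a median of -0.58. Both deltamethrin arrays lay below both vehicle arrays in 20 of them, against 23.5% of all. With a mean-variance trend 11 of them fell, and 15 of the G1/S targets, against 1.38% of all probe sets. Mki67, the gene for the Ki-67 antigen of cycling cells, was at 14.47 and 14.51 with deltamethrin, against 15.41 and 15.46 with vehicle (-0.95 ± 0.16, SE, limma adjusted p = 0.0939). The regulator of mitotic entry Cdca3 (-0.94 ± 0.21) and the checkpoint kinase Ttk (-0.79 ± 0.17) followed. In RNA from whole cultures, fewer cells in a cycle phase and less of a transcript per cell cannot be told apart.

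The E2F and CHR words lay in different shares of these 2 lists. An E2F word lay in a promoter window of 13 of 26 G1/S genes and 1 of 18 G2/M genes (5.56%). The CHR word lay in 4 of the 26 (15.4%) and 13 of the 18 (72.2%). Among all genes the shares were 2.6% for an E2F word and 20.2% for the CHR word. The lists were named for known control by E2F or CHR, so these shares describe the lists and are no separate evidence.

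**Figure D4:**
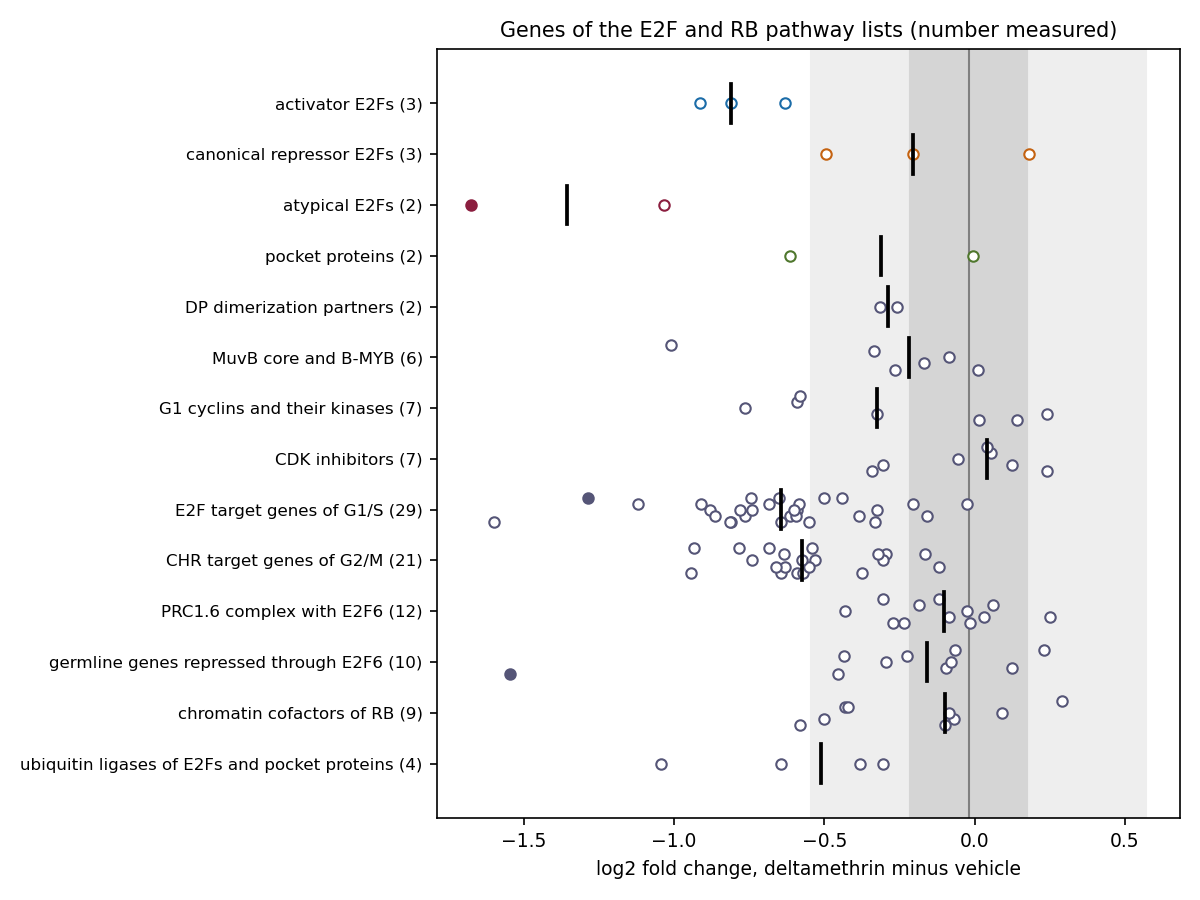
Log2 fold change (deltamethrin minus vehicle) of every measured gene of each list, 1 point per gene, filled where called, with the list's median as a bar. Grey bands hold the central 50% and 90% of all 22206 probe sets and the grey line is their median. The bands show the spread of single probe sets and are no yardstick for a list's median. The medians of the G1/S and G2/M target lists are -0.65 and -0.58.

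The partners of E2F6 were near vehicle levels. In the PRC1.6 list 0 of 12 measured genes passed in limma, 1 had an unadjusted p below 0.05, and the median was -0.10. Hdac2, a histone deacetylase also counted among the RB cofactors, was at -0.43 ± 0.16 (SE, limma adjusted p = 0.335), the chromodomain gene Cbx3 at -0.27 ± 0.16 and Rybp, a PRC1 subunit, at -0.31 ± 0.21. Germline genes are known to be silenced through E2F6 and PRC1.6 in somatic cells. Of 10 measured, 7 lay below the median level in both groups, 0 rose and 1 fell, against 0.0766% of all probe sets called lower. The gene that fell was Dazl, which encodes a germ cell RNA-binding protein, at 6.28 and 6.55 with deltamethrin, against 8.08 and 7.84 with vehicle (-1.55 ± 0.19, SE, limma adjusted p = 0.0410). The dim meiotic cohesin gene Smc1b was at -0.46 ± 0.18 and the testis tubulin gene Tuba3a, also dim, at -0.44 ± 0.20.

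RB recruits chromatin enzymes, and ubiquitin ligases remove E2Fs and pocket proteins. In the cofactor list 0 of 9 measured genes passed in limma, 2 had an unadjusted p below 0.05, and the median was -0.10. The corepressor scaffold Sin3a was at 14.28 and 14.29 with deltamethrin, against 14.78 and 14.79 with vehicle (-0.50 ± 0.16, SE, limma adjusted p = 0.268), and the RB-binding gene Arid4a was at -0.58 ± 0.25. In the ligase list 0 of 4 passed in limma and 2 had an unadjusted p below 0.05, with a median of -0.51. Skp2, the F-box protein that marks p27 for destruction and an E2F target, was at 12.00 and 11.84 with deltamethrin, against 13.01 and 12.92 with vehicle. Its log2 fold change was -1.05 ± 0.17 (SE, limma adjusted p = 0.0864), while the inhibitor of the anaphase-promoting complex Fbxo5 was at -0.65 ± 0.21 and Fzr1, which activates that complex, at -0.38 ± 0.16.

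The genes whose pattern over the 4 arrays was most like that of E2f7 were found by Euclidean distance. Each probe set was first centred on its own mean. Members, probe sets without a symbol and predicted genes (Gm or Rik symbols) were left out. The nearest genes were the histone deacetylase gene Hdac9 (distance 0.193), the LIM-domain gene Lmo3 (0.242), Dazl (0.244), the ETS factor gene Etv1 (0.249) and the pyruvate dehydrogenase kinase gene Pdk1 (0.252). All 5 were lower with deltamethrin by 1.47 to 1.55 on the log2 scale. The distance also counts the spread between arrays of a group. No replication gene was among the 5, but the estimate of Cdc6, -1.60, was nearer to that of E2f7 than theirs. Its deltamethrin arrays stood apart, at 9.77 and 9.02. Hdac9 was at 10.91 and 10.83 with deltamethrin, against 12.52 and 12.28 with vehicle.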

How the data were processed

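Gene expression was measured in 2 arrays of deltamethrin-treated and 2 arrays of vehicle-treated Neuro-2a cells, with groups and replicate numbers from the sample titles. RNA with an integrity number above 9.0 was accepted and 500 ng went into labelling, per the labels. Per the submitters' processing notes, the authors used Transcriptome Analysis Console and RMA (robust multi-array average) to make the deposited log2 values, which span 1.92 to 18.75. Tool versions and the genome build: not given in the sources used here. No detection calls were used, so a gene is called dim when its mean in the higher group lies below the median of all probe sets. The number of arrays limits the precision (median SE 0.19).

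Symbols came from the platform annotation, with 19572 of 22206 probe sets carrying 1 symbol and 2634 none, and they were checked by Entrez ID against RefSeq, with 0 updates. Deltamethrin minus vehicle was fitted over all probe sets with limma 3.58.1 (R 4.3.3), using the defaults of lmFit and eBayes, two-sided, with 2 residual and 4.43 prior degrees of freedom. Intervals are 95% moderated intervals of single probe sets, not adjusted. On simulated data with 22206 probe sets for this comparison, with spreads drawn regardless of level, 11 of 100 probe sets given a 2-fold change were called and 94 of 100 given a 4-fold change, besides 7 false calls.

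Members and lists were chosen with earlier results of these data known. Named genes were all members, up to 6 called genes of each list completed by smallest p to at least 3, and the 5 genes most like E2f7. Cdk4, Lin54, Isl1, Ptprc and Gjb6 were added once their values were known. List entries with no matched probe set were not analysed here. Cdc20, Hdac1, Hdac2, Ccne1 and Ccne2 stand in more than 1 list. The alternatives were a replicate block, a filter at the 40th percentile of the mean level, 3 further scalings, 3 variance models, leaving out each array and, for the target lists, averaging over all probe sets that read a gene. Each measured target gene was read by 1 probe set, so averaging left its own values unchanged.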

Additional observations from a re-analysis of the deposited data

How the results depend on the processing

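The count of called probe sets was 96, with 1 member and 1 G1/S target gene among them and 0 G2/M genes. It depended on the variance model and on every array. With a mean-variance trend there were 806 calls, 306 lower (1.38% of all probe sets) and 500 higher. Among the lower were 4 members (E2f1, E2f2, E2f7 and E2f8), 15 G1/S genes and 11 G2/M genes. Without dim probe sets there were 312, with 2 members (E2f7 and E2f8), 5 G1/S genes and 1 G2/M gene. With the replicate number as a block there were 0 calls of any kind (E2f7 adjusted p = 0.192, limma), with 3221 probe sets at an unadjusted p below 0.05. The deviations of same-numbered arrays correlated at 0.13 over all probe sets, and with 2 pairs the numbers are not taken to pair the arrays. Statistics without moderation also gave 0 calls, 0 members and 0 G1/S genes (E2f7 adjusted p = 0.362), with 2293 probe sets at an unadjusted p below 0.05. Leaving out any 1 array gave 0 calls of all probe sets, members, G1/S genes and G2/M genes, with 1631 to 2779 at an unadjusted p below 0.05. The lone array of a group was then assumed to vary like the other group. Quantile, cyclic loess and median scaling and robust moderation gave 89 to 116 calls, again with 1 member. The estimate of E2f7 ran from -1.72 to -1.63 over all alternatives, and that of Rbl1 changed sign, from -0.13 to 0.12, as arrays were left out. E2f6 stayed above 0 and the other 9 probe sets stayed below 0 in all 12 alternatives. Median residual SD was 0.152 for probe sets above the median level and 0.214 below it, and the prior SD of the fit without a trend was 0.194. The cause of the differences in counts was not tested beyond this. Values were deposited after normalization, so a shift that it made cannot be undone here.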

Other observations

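Within the G1/S list, subunits and partners of the replicative helicase had estimates below 0. These genes were picked with their values in view. The helicase subunits Mcm2, Mcm3, Mcm4, Mcm5 and Mcm6 had log2 fold changes of -0.33, -0.60, -0.74, -0.69 and -0.65, and 0 of the 5 passed in limma over all probe sets. Mcm10, which helps to activate the helicase, was at -0.75 ± 0.17 (SE), and Cdt1, which loads it and is controlled mainly by protein destruction, was at -0.16 ± 0.17. The groups were not apart for the DNA ligase gene Lig1, at 8.18 and 8.02 with deltamethrin, against 8.15 and 8.10 with vehicle. Nor were they for Dnmt1, at 11.56 and 11.65 with deltamethrin, against 11.65 and 11.97 with vehicle. Of the other helicase partners in the list, Cdc45, Gins1 and Gins2 were at -0.50, -0.62 and -0.88. In the G2/M list, the kinase genes Aurka, Aurkb, Plk1, Cdk1, Bub1b and Bub1 were at -0.65, -0.63, -0.74, -0.57, -0.54 and -0.30, beside Ttk.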
